A study of Drosophila melanogaster with 18 samples.

Results

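Muscle contraction is run by a small set of channels and pumps that move calcium, and 9 genes of that set are described here in Drosophila larvae: RyR, Itpr, SERCA, Stim, olf186-F, Ca-alpha1D, Ca-alpha1T, cac and jp. They were taken as a list of FlyBase symbols and matched to the gene identifiers of the count files, which gave 9 of 17411 annotated genes. All 9 passed the filter on low counts in both preparations. RNA-seq libraries came from third-instar larvae of 3 genotypes, mef2>NUAK548, mef2>NUAK550 and mef2>lacZ, where mef2, a driver active in muscle, expressed the kinase NUAK or, as the control, lacZ. Every genotype was sequenced as muscle carcass, the dissected body wall, and as the whole larva, with 3 libraries in each of the 6 groups and 18 in all. The labels give a temperature of 25 °C for all of them. The labels call both NUAK genotypes overexpression and do not explain the names NUAK548 and NUAK550. They give neither sex nor the origin of each library, such as separate cultures, so the p-values measure the spread between these libraries, which may be technical. There is no control for the genetic background of each line.

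In muscle, depolarisation opens voltage-gated calcium channels of the surface membrane, the ryanodine receptor releases calcium from the sarcoplasmic reticulum, and the pump SERCA carries it back. Junctophilin ties the surface membrane to the membrane of the store, and the STIM and Orai proteins let calcium in when the store is empty. The IP3 receptor is the other release channel of the store and answers to phospholipase C signalling.

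Libraries held 14577914 to 19771226 counted reads in muscle carcass and 14931020 to 22341807 in whole larvae. Levels are given as CPM, a gene's reads relative to the total of its library, scaled by the trimmed mean of M values over all 18 libraries, and are listed for libraries 1, 2 and 3 in that order. A gene was called higher or lower at an adjusted p below 0.05 in edgeR's quasi-likelihood F test, with Benjamini-Hochberg adjustment over all genes tested. Nuak itself stood at 2199 to 3477 CPM in NUAK548 muscle and 4040.3 to 5239 CPM in NUAK550 muscle, against 393 to 459.9 CPM in lacZ muscle. The male-specific RNA lncRNA:roX1 ran from 134 to 338 CPM in NUAK548 muscle and from 60.9 to 66.2 CPM in NUAK550 muscle, against 490.0 to 554 CPM in lacZ muscle. In whole larvae it stood at 181, 21.9 and 19.5 CPM in NUAK548 and at 23.2 to 27.0 CPM in NUAK550, against 163 to 190.2 CPM in lacZ. Library 1 of whole NUAK548 thus sat at the lacZ level. The related lncRNA:roX2 averaged 3.83 CPM in NUAK548 muscle and 0.0472 CPM in NUAK550 muscle, against 9.97 CPM in lacZ muscle. Of 8 spermatocyte markers, 7 lay below lacZ without overlap in whole NUAK550, beside 29.2% of all genes, and 1 in whole NUAK548. None of the 8 was called. The share of males in each library was not tested. All 10 listed muscle markers were higher in lacZ muscle carcass than in lacZ whole larvae and all 8 neuron markers were lower.

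RyR (FBgn0011286, chromosome 2R 8860364 to 8888097, plus strand, BDGP6) encodes the single ryanodine receptor of the fly, and its RNA fell in muscle of both NUAK genotypes. Its level was 22.9, 56.0 and 26.0 CPM in NUAK548 muscle, against 302, 415 and 357 CPM in lacZ muscle. In NUAK550 muscle it was 159, 62.1 and 117 CPM. All 6 NUAK muscle libraries lay below the lowest lacZ library. NUAK548 muscle was 10.4-fold lower, with a log2 fold change of -3.38 (SE 0.43, adjusted p = 0.00546). NUAK550 muscle was 3.24-fold lower, with a log2 fold change of -1.70 (SE 0.41, adjusted p = 0.0301). Both comparisons use the same 3 lacZ libraries. The mean of the NUAK genotypes differed from lacZ by log2 -2.54 (SE 0.33, adjusted p = 0.00317). In bulk tissue, fewer cells of a type and less RNA per cell cannot be told apart.

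The call of RyR in NUAK548 and in the mean held with each muscle library left out in turn, at adjusted p of at most 0.0296 and 0.0181. In NUAK550 it was lost without any 1 of the 3 lacZ libraries or without NUAK550 library 2 or 3, with adjusted p up to 0.0974. Leaving out a library can lower the calls over all genes too. In NUAK548 muscle the share called went from 5.56% to 2.47% without lacZ library 1 and 1.73% without lacZ library 2. Since lncRNA:roX1 separates the 3 muscle groups without overlap, its level and the genotype cannot be told apart. With lncRNA:roX1 as a covariate the RyR log2 fold change was -3.29 in NUAK548 and -1.46 in NUAK550, with SEs of 0.88 and 1.87 and adjusted p of 0.245 and 0.996. No call of any member in muscle remained with this covariate, and nearly none of all the genes tested was called in the muscle comparisons with it either.

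In whole larvae the level of RyR was 18.9, 16.4 and 8.26 CPM in NUAK548, against 9.44, 20.8 and 6.56 CPM in lacZ. These groups overlapped, with a log2 fold change of 0.28 (SE 0.54, adjusted p = 0.813). In whole NUAK550 the level was 34.0, 26.3 and 65.8 CPM, so that each library lay above the highest lacZ library. That difference was not called (log2 fold change 1.84, SE 0.55, adjusted p = 0.0952). It passed the threshold without whole NUAK548 library 1 (adjusted p = 0.0370), when only NUAK550 and lacZ were fitted (0.0364), by DESeq2 (0.0123) and by limma on the authors' deposited normalized values (0.0485).

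RyR averaged 34.9 ± 18.3 CPM in NUAK548 muscle and 113 ± 48.4 CPM in NUAK550 muscle, against 358 ± 56.7 CPM in lacZ muscle (SD, n = 3 each). Its whole-larva means were 14.5 ± 5.58 CPM in NUAK548 and 42.1 ± 21.0 CPM in NUAK550, against 12.3 ± 7.53 CPM in lacZ. From high to low the 6 groups were lacZ muscle, NUAK550 muscle, whole NUAK550, NUAK548 muscle, whole NUAK548 and whole lacZ. In this order, 3 neighbouring pairs had overlapping libraries: NUAK550 muscle with whole NUAK550, whole NUAK550 with NUAK548 muscle, and whole NUAK548 with whole lacZ.

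**Figure D1:**
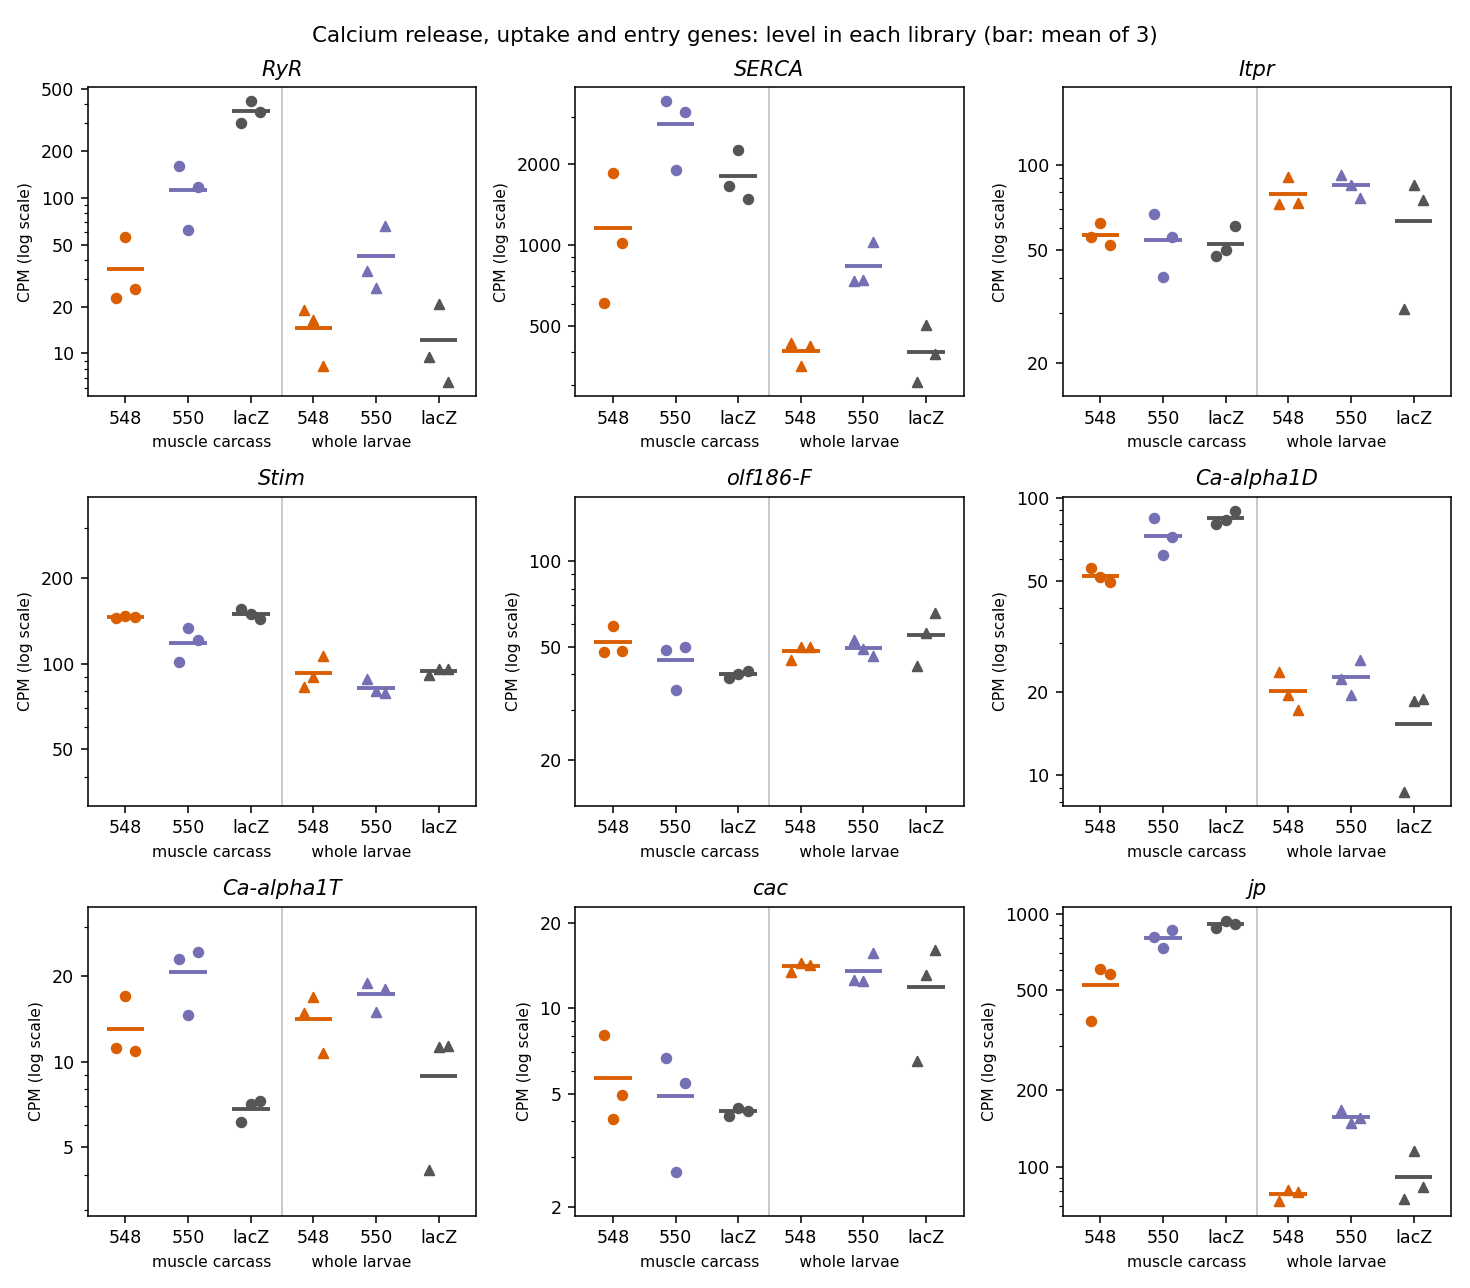
CPM (log scale) of each of the 9 genes in every library, by genotype, with muscle carcass as circles and whole larvae as triangles and a bar at the mean of 3 libraries. RyR in NUAK548 muscle sat between 22.9 and 56.0 CPM and in lacZ muscle between 302 and 415 CPM, while Itpr, Stim and olf186-F in muscle lie between 35.4 and 155 CPM in all genotypes.

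Itpr (FBgn0010051, 3R 5517117 to 5539411) encodes the IP3 receptor, and its muscle levels overlapped between genotypes. Its level was 55.5, 62.6 and 52.1 CPM in NUAK548 muscle and 67.1, 40.2 and 55.5 CPM in NUAK550 muscle, against 47.8, 50.03 and 60.7 CPM in lacZ muscle. Neither genotype was called, with a difference from lacZ of log2 0.09 in NUAK548 (SE 0.17, adjusted p = 0.812) and 0.02 in NUAK550 (SE 0.17, adjusted p = 0.955). In whole larvae the level was 72.9, 90.8 and 73.1 CPM in NUAK548 and 92.3, 85.1 and 76.6 CPM in NUAK550, against 31.2, 84.8 and 74.9 CPM in lacZ. Library 1 of whole lacZ stood apart from the other two at 31.2 CPM, and neither genotype was called there (adjusted p = 0.731 in NUAK548 and 0.330 in NUAK550).

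The ratio of the release channels shows the same contrast in each library. Per kb of exon, RyR over Itpr was 0.259, 0.563 and 0.314 in NUAK548 muscle and 1.49, 0.973 and 1.33 in NUAK550 muscle, against 3.98, 5.23 and 3.70 in lacZ muscle. Per length, RyR was thus the less abundant release channel RNA in every NUAK548 muscle library and the more abundant in every lacZ muscle library. In whole larvae the ratio was 0.0711 to 0.163 in NUAK548 and 0.194 to 0.541 in NUAK550, against 0.0551 to 0.191 in lacZ. No test was run on these ratios.

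SERCA (FBgn0263006, 2R 23925077 to 23935884), the pump that refills the sarcoplasmic reticulum, lay on opposite sides of lacZ by mean in the NUAK genotypes, and neither difference passed the test. Its level was 607, 1857 and 1013 CPM in NUAK548 muscle and 3420.4, 1904 and 3128 CPM in NUAK550 muscle, against 1650.0, 2261 and 1484 CPM in lacZ muscle. Each NUAK group overlapped lacZ, whereas every NUAK550 library lay above every NUAK548 library. Against lacZ, the change was log2 -0.66 (SE 0.39, adjusted p = 0.375) in NUAK548 and 0.62 (SE 0.39, adjusted p = 0.338) in NUAK550. Of the exon bases of SERCA, 16.0% overlap CG2812 on the other strand, and the strand setting of the counting is not given in the sources used here.

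In whole larvae SERCA stood at 429.7, 354 and 419.9 CPM in NUAK548, against 309, 503 and 391 CPM in lacZ (log2 fold change 0.03, adjusted p = 0.947). In whole NUAK550 it was 732, 739 and 1023 CPM, above all lacZ libraries. This amounted to a log2 fold change of 1.12 (SE 0.21), which was not called (adjusted p = 0.0613). Without whole NUAK548 library 1 it was called (adjusted p = 0.00574), and also by DESeq2 (3.3e-05), in the fit of NUAK550 and lacZ alone (0.0103) and by limma on the authors' deposited normalized values (0.0451).

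Stim (FBgn0045073, X 15934495 to 15940451) encodes the sensor of store calcium, and edgeR called it in no NUAK comparison. Its level was 145, 147 and 146 CPM in NUAK548 muscle and 102, 133 and 121 CPM in NUAK550 muscle, against 155, 150.2 and 143 CPM in lacZ muscle. Each NUAK550 library lay below each lacZ library, whereas NUAK548 overlapped lacZ. Stim thus differed from lacZ by log2 -0.05 in NUAK548 (SE 0.12, adjusted p = 0.857) and by -0.35 in NUAK550 (SE 0.12, adjusted p = 0.0885). By DESeq2 Stim was called lower in NUAK550 (adjusted p = 0.0204). In whole larvae Stim stood at 82.5 to 107 CPM in NUAK548 and 78.5 to 88.3 CPM in NUAK550, against 91.1 to 95.5 CPM in lacZ, and neither was called (adjusted p = 0.957 and 0.450).

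Its partner olf186-F (FBgn0041585, 2R 17843442 to 17860582, named Orai in the reference annotation) encodes the channel that STIM opens. The level of olf186-F was 47.9, 59.0 and 48.5 CPM in NUAK548 muscle and 48.9, 35.4 and 49.997 CPM in NUAK550 muscle, against 38.7, 40.1 and 41.1 CPM in lacZ muscle. The NUAK548 libraries all lay above lacZ, and library 2 of NUAK550 lay below it. Neither difference was called, at log2 0.36 (SE 0.14, adjusted p = 0.177) in NUAK548 and 0.14 (SE 0.14, adjusted p = 0.541) in NUAK550. In whole larvae its level ran from 44.8 to 49.8 CPM in NUAK548 and from 46.4 to 52.9 CPM in NUAK550, against 42.9 to 65.7 CPM in lacZ, with all groups overlapping.

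Ca-alpha1D (FBgn0001991, 2L 16165831 to 16190540) encodes the L-type channel subunit that carries calcium into larval body-wall muscle, and its RNA fell in NUAK548 muscle. Its level was 56.0, 51.7 and 49.5 CPM in NUAK548 muscle and 84.2, 62.4 and 72.2 CPM in NUAK550 muscle, against 80.5, 82.7 and 89.4 CPM in lacZ muscle. Of its exon bases, 2.37% overlap the antisense RNA asRNA:CR43806. All NUAK548 libraries lay below lacZ, and 1 of the 3 NUAK550 libraries lay within its range. In NUAK548 the log2 fold change was -0.70 (1.62-fold lower, SE 0.11, adjusted p = 0.0127) and -0.23 in NUAK550 (SE 0.11, adjusted p = 0.229). For the mean of the genotypes it was -0.46 (SE 0.10, adjusted p = 0.0208). Without lacZ muscle library 2 the NUAK548 call was lost (adjusted p = 0.0560), where 1.73% of all genes were called, against 5.56% with all libraries. The call of the mean was lost without any 1 lacZ library or NUAK550 library 3 (adjusted p up to 0.0899).

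In whole larvae Ca-alpha1D had higher means with NUAK and no call, at 23.6, 19.5 and 17.3 CPM in NUAK548 and 22.3, 19.4 and 26.1 CPM in NUAK550, against 8.73, 18.5 and 18.8 CPM in lacZ. The adjusted p was 0.646 in NUAK548 and 0.160 in NUAK550. As with Itpr, SERCA, olf186-F, Ca-alpha1T and cac, library 1 of whole lacZ was the lowest of the 9 whole-larva libraries. The neuron markers of whole lacZ summed to 237 to 404 CPM, lowest in library 1. The part of that library in the whole-larva differences was not tested.

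Ca-alpha1T (FBgn0264386, X 6104085 to 6192483), which encodes the T-type channel subunit that opens at low voltage, was the one member called higher in muscle. Its level was 11.2, 17.0 and 10.9 CPM in NUAK548 muscle and 23.1, 14.6 and 24.4 CPM in NUAK550 muscle, against 6.15, 7.08 and 7.31 CPM in lacZ muscle. All 6 NUAK libraries lay above the highest lacZ library. In NUAK550 it was 2.97-fold higher (log2 1.57, SE 0.24, adjusted p = 0.00582), and in NUAK548 the log2 fold change of 0.91 (SE 0.24, adjusted p = 0.0629) was not called. DESeq2 called it in NUAK548 as well (adjusted p = 0.0142). The mean of the genotypes was called at 1.24 (SE 0.21, adjusted p = 0.00993), a call lost without lacZ library 1 (adjusted p = 0.0514). The NUAK550 call held with each library left out.

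In whole larvae Ca-alpha1T stood at 14.8, 17.0 and 10.8 CPM in NUAK548 and at 18.9, 14.95 and 18.1 CPM in NUAK550, against 4.16, 11.3 and 11.4 CPM in lacZ. The NUAK550 libraries lay above lacZ (log2 fold change 1.03, SE 0.37, adjusted p = 0.101), and NUAK548 overlapped it (0.72, SE 0.37, adjusted p = 0.547). Only 81 to 105 reads per library stood behind its lacZ muscle values.

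The third voltage-gated subunit, cac (FBgn0263111, X 11931280 to 11985087), forms the presynaptic calcium channel of flies. It had the fewest reads of the 9 genes in muscle, 43 to 126 per library. Its level there was 8.02, 4.05 and 4.94 CPM in NUAK548 and 6.67, 2.64 and 5.45 CPM in NUAK550, against 4.18, 4.45 and 4.36 CPM in lacZ. The NUAK groups spread on both sides of the tight lacZ values, and neither was called (adjusted p = 0.595 and 0.819). In whole larvae cac ran from 13.4 to 14.4 CPM in NUAK548 and from 12.4 to 15.6 CPM in NUAK550, against 6.53, 13.1 and 16.0 CPM in lacZ.

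Where the surface membrane meets the store sits junctophilin, encoded by jp (FBgn0032129, 2L 9547720 to 9566750), and jp RNA fell in NUAK548 muscle. Its level was 376, 606 and 579 CPM in NUAK548 muscle and 807, 733 and 865 CPM in NUAK550 muscle, against 881, 937 and 911 CPM in lacZ muscle. Every NUAK library lay below every lacZ library. In NUAK548 it was 1.76-fold lower (log2 -0.82, SE 0.18, adjusted p = 0.0363), and in NUAK550 the difference of log2 -0.20 (SE 0.18, adjusted p = 0.509) was not called. The NUAK548 call was lost without any 1 of the lacZ or NUAK550 libraries or NUAK548 library 3, with adjusted p up to 0.119. Without lacZ library 1 or 2, 2.47% and 1.73% of all genes were called, against 5.56% with all libraries.

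In whole larvae jp stood at 72.8, 80.7 and 79.2 CPM in NUAK548 and 167, 148 and 155 CPM in NUAK550, against 74.3, 114.99 and 82.9 CPM in lacZ. The NUAK550 libraries all exceeded lacZ, at a log2 fold change of 0.86 (SE 0.17, adjusted p = 0.0631, not called). It was called without whole NUAK548 library 1 (adjusted p = 0.00778), by DESeq2 (6.1e-05), in the fit of NUAK550 and lacZ alone (0.0144) and by limma on the authors' deposited normalized values (0.0451).

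Counted over the list, NUAK548 muscle had 3 members lower (RyR, Ca-alpha1D and jp) and none higher, where 2.96% of the 9821 genes tested were lower and 2.60% higher. NUAK550 muscle had RyR lower and Ca-alpha1T higher, beside 6.11% and 6.45% of all genes. The mean of the genotypes had 2 lower (RyR and Ca-alpha1D) and 1 higher (Ca-alpha1T), beside 5.75% and 4.85%. The median log2 fold change of the 9 members was -0.05 in NUAK548 and 0.02 in NUAK550, close to the medians of all genes tested (0.01 and 0.03). By libraries that did not overlap, 3 members were lower and 2 higher in NUAK548 muscle, beside 12.8% and 14.8% of all genes, and 3 were lower and 1 higher in NUAK550, beside 15.4% and 19.2%. In all 6 NUAK muscle libraries together, RyR and jp lay below lacZ and Ca-alpha1T above it, beside 7.07% and 8.34% of all genes.

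**Figure D2:**
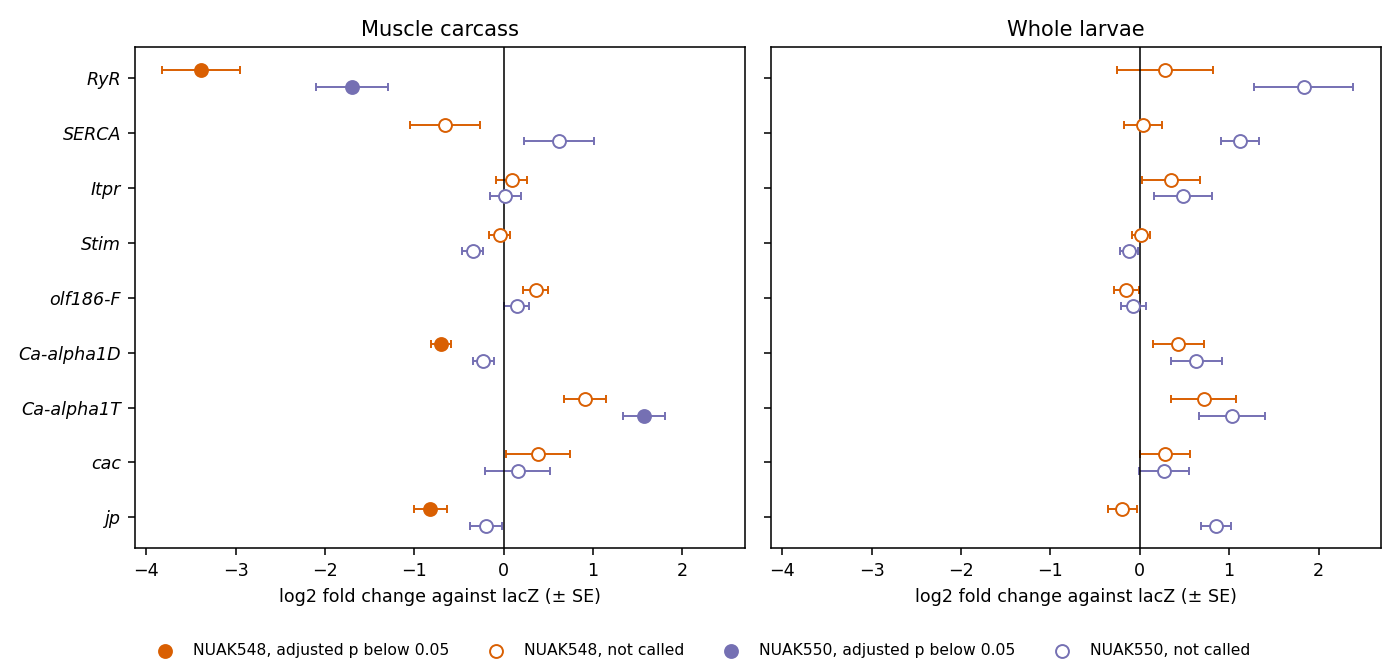
Log2 fold change of each of the 9 genes against lacZ (horizontal axis, ± SE) in muscle carcass (left) and whole larvae (right), with NUAK548 in orange and NUAK550 in violet and filled points where the adjusted p was below 0.05. RyR lies at -3.38 and -1.70 in muscle and at 0.28 and 1.84 in whole larvae, and no point is filled on the right.

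No member was called in whole larvae by edgeR, where 0.155% of 12255 genes were called in NUAK548, 0.808% in NUAK550 and 0.424% for the mean. At an unadjusted p below 0.05 there were 0, 4 and 2 members, beside 10.54%, 34.6% and 28.97% of all genes. DESeq2 called 0, 3 (RyR, SERCA and jp) and 1 (SERCA), beside 3.98%, 19.7% and 10.2% of all genes. By limma on the authors' deposited normalized values 0, 3 and 0 were called, beside 0.348%, 18.04% and 0.654%. In whole NUAK550, 5 members had all libraries above lacZ (RyR, SERCA, Ca-alpha1D, Ca-alpha1T and jp) and Stim had all below, beside 15.0% and 29.2% of all genes. The median log2 fold change of the 9 was 0.28 in NUAK548 and 0.63 in NUAK550, beside -0.01 and 0.01 over all genes. The whole-larva fit took in NUAK548 library 1, and leaving it out raised the genes called in NUAK550 against lacZ to 3098 (25.04%), against 99 with it. With NUAK550 and lacZ alone, 25.2% of genes were called.

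All 10 muscle markers lay above lacZ without overlap in whole NUAK550 too, beside 15.0% of all genes, and none was called. Their median log2 fold change was 1.60. In whole NUAK548 their median was -0.20, beside 0.28 for the 9 members. The summed level of the 10 muscle markers was 3257 to 7329 CPM in whole NUAK548 and 20749 to 24827 CPM in whole NUAK550, against 3018 to 9324 CPM in whole lacZ. Relative to that sum, RyR was 1.37, 1.27 and 2.90 CPM per 1000 CPM in whole NUAK550, against 1.63, 2.23 and 2.17 in whole lacZ. On this scale the groups overlapped. For jp the values were 6.72, 7.15 and 6.83 in whole NUAK550, against 12.8, 12.3 and 27.5 in whole lacZ, so that jp lay below lacZ on the marker scale and above it in CPM. SERCA on the marker scale was 29.5, 35.6 and 45.0 in whole NUAK550, against 53.2, 53.9 and 129.7 in whole lacZ.

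In muscle carcass RyR lay below lacZ on the marker scale too, with all 6 NUAK libraries below all 3 lacZ libraries. The summed markers were 35131 to 90199 CPM in NUAK548 and 92416 to 135049 CPM in NUAK550, against 46431 to 67081 CPM in lacZ, and no marker was called lower. In NUAK550 all 10 had a positive log2 fold change (median 0.76), 2 were called higher and 6 had libraries that did not overlap, while in NUAK548 the median was -0.10 and 1 was called higher. RyR was 0.650, 0.621 and 0.434 CPM per 1000 marker CPM in NUAK548 muscle and 1.17, 0.672 and 0.903 in NUAK550 muscle, against 6.26, 6.19 and 7.69 in lacZ muscle. The gap between the means was 11.8-fold in NUAK548 and 7.33-fold in NUAK550, beside edgeR's fitted 10.4-fold and 3.24-fold without the marker scale. The marker sum was higher in NUAK550, and its part in that wider gap was not tested. Of all the groups, lacZ muscle had the highest ratio and both NUAK muscle groups lay below every whole-larva library. SERCA on this scale was 17.3, 20.6 and 16.9 in NUAK548 muscle and 25.3, 20.6 and 24.1 in NUAK550 muscle, against 34.2, 33.7 and 32.0 in lacZ muscle. Here NUAK550 muscle lay below lacZ, whereas its CPM mean lay above. Ca-alpha1D on this scale was 1.59, 0.573 and 0.828 in NUAK548 muscle and 0.624, 0.675 and 0.557 in NUAK550 muscle, against 1.67, 1.23 and 1.93 in lacZ muscle. The NUAK548 libraries, called lower in CPM, overlapped lacZ on the marker scale, and the NUAK550 libraries, not called in CPM, did not. For jp the values were 10.7, 6.72 and 9.69 in NUAK548 muscle and 5.98, 7.94 and 6.67 in NUAK550 muscle, against 18.2, 13.96 and 19.6 in lacZ muscle. Neither genotype overlapped lacZ, and the NUAK550 mean lay 2.52-fold below it, beside edgeR's fitted 1.15-fold without the marker scale, which was not called. The marker sum is unweighted, and Act57B and Mlc2 were its largest terms in NUAK550 and lacZ muscle. Act57B averaged 41316 CPM in NUAK550 muscle, against 12343 CPM in lacZ muscle, and Mlc2 21967 CPM, against 9970 CPM. The smaller term sls averaged 2899 CPM, against 1967 CPM. No test was run on the marker scale.

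The balance of release to uptake was set out as RyR over SERCA, each per kb of exon. It was 0.0190, 0.0152 and 0.0129 in NUAK548 muscle and 0.0234, 0.0164 and 0.0189 in NUAK550 muscle, against 0.0922, 0.0926 and 0.121 in lacZ muscle. No NUAK muscle library came near the lacZ muscle libraries, and the NUAK genotypes overlapped each other although their RyR and SERCA levels did not. In whole larvae the ratio was 0.0222, 0.0234 and 0.00991 in NUAK548 and 0.0234, 0.0179 and 0.0324 in NUAK550, against 0.0154, 0.0209 and 0.00844 in lacZ. Both NUAK muscle groups therefore lay within the range of the whole larvae, and lacZ muscle alone stood above it.

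**Figure D3:**
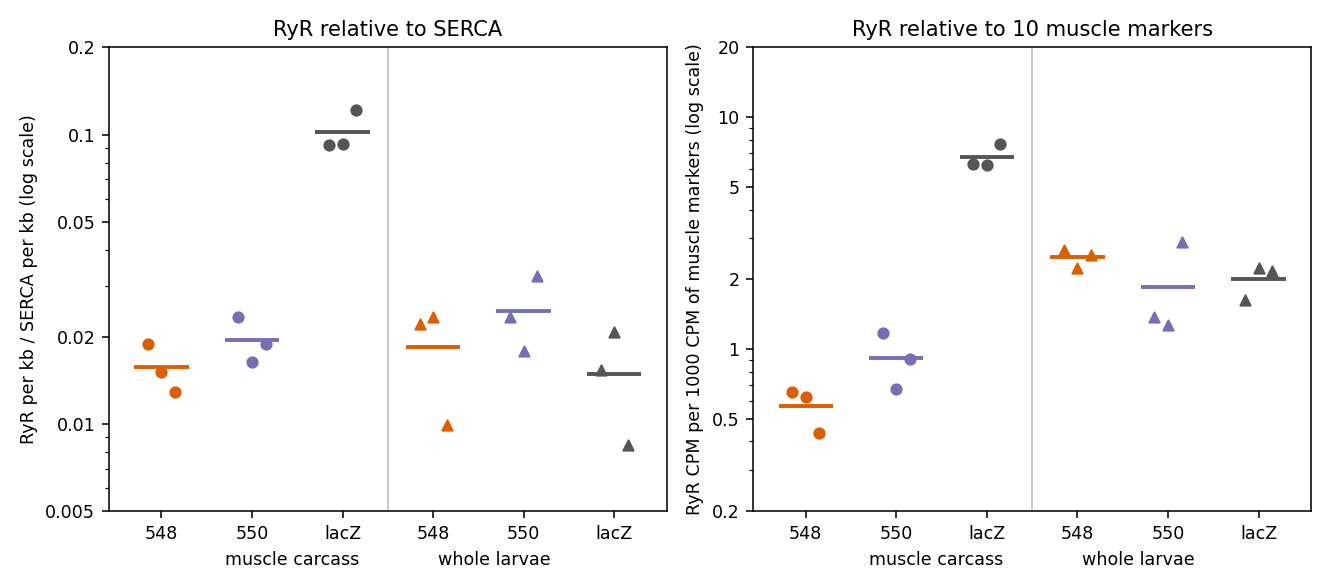
RyR relative to SERCA (left, ratio of CPM per kb) and to the summed level of 10 muscle markers (right, CPM per 1000 marker CPM), both on log axes, for each library of each genotype with a bar at the mean of 3. On the left every NUAK library lies at or below 0.0324, against 0.0922 to 0.121 in lacZ muscle.

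The NUAK genotypes were also compared with each other. In muscle, NUAK550 exceeded NUAK548 without overlap for RyR (log2 fold change 1.69, SE 0.41, adjusted p = 0.0877), SERCA (1.28, SE 0.40, adjusted p = 0.134), Ca-alpha1D (0.47, SE 0.11, adjusted p = 0.0869) and jp (0.62, SE 0.18, adjusted p = 0.119), and lay below it for Stim (-0.30, SE 0.12, adjusted p = 0.198). Such non-overlap held for 13.3% of all genes upward and 10.6% downward. No member was called by edgeR, beside 1.45% of all genes. At an unadjusted p below 0.05 there were 6 members, beside 20.6% of all genes, and DESeq2 called RyR, SERCA, Ca-alpha1D and jp, beside 9.13%. In whole larvae RyR, SERCA and jp were higher in each NUAK550 library than in each NUAK548 library, beside 13.2% of all genes. There edgeR called none (0.139% of all genes), 3 had an unadjusted p below 0.05 (21.4% of all genes) and DESeq2 called SERCA and jp (8.26%). The 10 muscle markers shifted the same way between the NUAK genotypes. In muscle 6 were higher in NUAK550 without overlap (median log2 fold change 0.80), and in whole larvae all 10 were (median 1.79). No marker was called in either. Their part in the differences of the members was not tested.

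Whether the difference between NUAK and lacZ varied between muscle carcass and whole larvae was tested in 1 model of all 18 libraries, over 12429 genes. The lncRNA:roX1 covariate was not fitted in this model. RyR was the only member called. Its log2 fold change in muscle minus that in whole larvae was -3.61 in NUAK548 (SE 0.73, adjusted p = 0.0292), -3.45 in NUAK550 (SE 0.72, adjusted p = 0.0313) and -3.53 for the mean (SE 0.63, adjusted p = 0.0106). Of all genes, 0.909%, 1.82% and 2.04% were called in these tests, and their medians were 0.05, 0.15 and 0.11. The call for the mean held with each of the 18 libraries left out (adjusted p at most 0.0332), and the single-genotype calls were each lost in 8 of 18 such fits, with adjusted p up to 0.0908 in NUAK548 and 0.0825 in NUAK550. In NUAK548 these were the fits without any 1 lacZ muscle library, NUAK548 muscle library 1 or 3, whole lacZ library 1 or 3, or whole NUAK548 library 2. In NUAK550 they were those without any 1 lacZ muscle library, NUAK550 muscle library 2 or 3, whole lacZ library 3, or whole NUAK550 library 1 or 3. The nearest other members for the mean were jp (-0.77, SE 0.22, adjusted p = 0.0829) and Ca-alpha1D (-0.92, SE 0.28, adjusted p = 0.109), and DESeq2 called both, beside 6.63% of all genes. Without whole NUAK548 library 1, edgeR called them too (adjusted p = 0.0140 for jp and 0.0189 for Ca-alpha1D), beside 14.8%. For NUAK550 the muscle marker sums were higher than in lacZ on both sides of this test, and their part in it was not tested. For NUAK548 the sums overlapped lacZ in both preparations.

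In the control genotype, the members divided by tissue. In lacZ muscle carcass against lacZ whole larvae, 5 were higher and 2 lower, beside 22.4% and 37.1% of all genes. RyR led, at 358 ± 56.7 CPM in muscle, against 12.3 ± 7.53 in whole larvae (29.8-fold, log2 fold change 4.90, SE 0.58, adjusted p = 1.4e-05). The gap was 10.2-fold for jp (adjusted p = 2.8e-08), 5.59-fold for Ca-alpha1D (adjusted p = 2.4e-06), 4.57-fold for SERCA (adjusted p = 0.000177) and 1.62-fold for Stim (adjusted p = 0.00014). The presynaptic channel gene cac was 2.69-fold lower in muscle (adjusted p = 0.00349) and olf186-F 1.35-fold lower (adjusted p = 0.0271), and the olf186-F call was lost in 9 of 18 fits that left out a library (any 1 lacZ muscle library, whole lacZ library 2 or 3, any 1 whole NUAK548 library, or whole NUAK550 library 3), with adjusted p up to 0.205. Itpr and Ca-alpha1T were not called (adjusted p = 0.473 and 0.368).

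Levels of different genes can be set side by side only per length, here as CPM per kb of merged exons. SERCA led in every muscle group, with means of 140.2 CPM per kb in NUAK548 and 341 in NUAK550, against 218 in lacZ. It was followed by jp (75.4 in NUAK548 and 116 in NUAK550, against 132 in lacZ) and Stim (49.2 and 39.9, against 50.3). RyR came next in lacZ muscle only. In NUAK548 muscle RyR, at 2.13 CPM per kb, came after olf186-F (9.72), Itpr (5.49) and Ca-alpha1D (4.996) and did not overlap the last of these. In NUAK550 muscle RyR (6.86) stood beside Ca-alpha1D (6.96) and below olf186-F (8.40). In lacZ muscle RyR stood at 21.8 CPM per kb, followed by Ca-alpha1D at 8.03, olf186-F at 7.50, Itpr at 5.11, Ca-alpha1T at 0.521 and cac at 0.363. In that lacZ order Ca-alpha1D and olf186-F were the only neighbours whose libraries overlapped. In whole larvae RyR averaged 0.886 CPM per kb in NUAK548 and 2.56 in NUAK550, against 0.748 in lacZ, where cac stood at 0.995 and Ca-alpha1T at 0.679.

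Genes whose pattern over the 9 muscle libraries was most like that of RyR were sought among all genes tested, by Pearson's r of log2 CPM. The 5 nearest were CG17896 (r = 0.98), the tetraspanin gene Tsp42Ed (0.97), Strn-Mlck (0.97), which encodes a stretchin and myosin light chain kinase, the adhesion protein gene nrm (0.96) and CG4239 (0.96). These libraries share 3 genotypes, so any gene ordered lacZ, NUAK550, NUAK548 scores high. Over the 9 whole-larva libraries their r with RyR was 0.86, 0.76, 0.81, 0.94 and 0.80, where SERCA had 0.87 and jp 0.81. In muscle each was lower for the mean of the genotypes, which follows from the choice by r, at log2 0.89 to 1.21 against 2.54 for RyR. Strn-Mlck, for example, averaged 162 ± 31.2 CPM in NUAK548 and 236 ± 66.2 CPM in NUAK550, against 428 ± 53.1 CPM in lacZ. Among the members, Ca-alpha1D (r = 0.92) and jp (0.89) were nearest to RyR in muscle, SERCA had 0.58, and Stim (-0.03) and Itpr (0.05) were near 0. In whole larvae Ca-alpha1D had 0.61 and Stim -0.75.

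A further 38 genes of calcium handling were looked at in 9 lists, of which 36 could be tested in muscle and 35 in whole larvae. For the mean of the genotypes in muscle, 6 were higher, 5 lower and 25 not called, beside 4.85% and 5.75% of all genes. NUAK548 alone had 3 higher and 4 lower, beside 2.60% and 2.96% of all genes, and NUAK550 had 7 higher and 3 lower, beside 6.45% and 6.11%. Their median log2 fold change for the mean was 0.00. In whole larvae edgeR called none in either genotype, with 2 of 35 at an unadjusted p below 0.05 in NUAK548 and 12 of 35 in NUAK550, shares no higher than those of all genes (10.54% and 34.6%).

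Of 4 genes for accessory proteins of the voltage-gated channels, stj and Ca-beta rose for the mean, where 4.85% of all genes were higher, and stol and Stacl were not called. The alpha2-delta subunit gene stj stood at 11.2, 17.98 and 9.88 CPM in NUAK548 muscle and 19.5, 7.99 and 14.02 CPM in NUAK550 muscle, against 3.04, 3.24 and 2.88 CPM in lacZ muscle. All NUAK libraries were above lacZ, and the mean was 4.32-fold higher (log2 fold change 2.11, SE 0.31, adjusted p = 0.00556). The beta subunit gene Ca-beta averaged 27.7 ± 11.4 CPM in NUAK548 and 38.1 ± 3.33 CPM in NUAK550, against 14.98 ± 1.78 CPM in lacZ, and was called for the mean (log2 fold change 1.10, adjusted p = 0.0252) with library 3 of NUAK548 inside the lacZ range. The neuron markers, whose cells also use stj and cac, summed to 92.8 to 121 CPM in NUAK548 muscle and 74.5 to 197 CPM in NUAK550 muscle, against 77.7 to 101 CPM in lacZ muscle. Of these 8 markers, 1 was called higher for the mean (para, log2 fold change 1.00, adjusted p = 0.034) and none lower. All 8 had a positive log2 fold change for the mean (median 0.54), and 2 were higher without overlap. Their part in the accessory subunit and Ca-alpha1T values was not tested.

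Of the partners of the release channels, homer fell and Fkbp12 was not called. The scaffold gene homer, whose vertebrate relatives bind release channels, stood at 63.2, 67.7 and 63.9 CPM in NUAK548 muscle and 58.6, 60.9 and 61.2 CPM in NUAK550 muscle, against 98.2, 103 and 109 CPM in lacZ muscle. The groups were far apart relative to their spread, and the mean was 1.67-fold lower (log2 fold change -0.74, SE 0.07, adjusted p = 0.000789). In whole larvae homer overlapped, at 50.5 to 53.6 CPM in NUAK548 and 46.1 to 48.1 CPM in NUAK550, against 46.3 to 59.4 CPM in lacZ. Like RyR, homer differed between the preparations for each genotype and the mean (-0.61, SE 0.11, adjusted p = 0.0104 for the mean).

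In the IP3 branch 1 of 6 genes was called: Plc21C, a phospholipase C that makes IP3, was 1.83-fold lower for the mean (log2 fold change -0.87, SE 0.12, adjusted p = 0.00357). It stood at 75.2, 61.0 and 80.1 CPM in NUAK548 muscle and 50.5, 56.1 and 64.7 CPM in NUAK550 muscle, against 124, 109 and 115.4 CPM in lacZ muscle. All NUAK libraries lay below lacZ.

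Among extrusion and Golgi uptake genes, the sodium-calcium exchanger gene Calx was lower and the Golgi pump gene SPoCk slightly higher. The exchanger gene averaged 18.3 ± 10.3 CPM in NUAK548 and 37.1 ± 6.45 CPM in NUAK550, against 61.6 ± 11.1 CPM in lacZ, and was 3.42-fold lower in NUAK548 (adjusted p = 0.0232). SPoCk stood at 66.5 ± 3.03 CPM in NUAK548 and 67.5 ± 1.10 CPM in NUAK550, against 55.1 ± 0.992 CPM in lacZ, a log2 fold change of 0.27 for the mean (adjusted p = 0.0374). The plasma membrane pump gene PMCA was not called.

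Calcium sensors were split. Of 9 genes for calmodulin and its effectors, the kinase gene CaMKII was higher for the mean (log2 fold change 0.64, SE 0.12, adjusted p = 0.0128), and the calcineurin subunit gene CanB2 (-0.34, adjusted p = 0.0256) and the calcineurin regulator gene sra (-0.82, adjusted p = 0.0333) were lower. Of the exon bases of sra, 12.7% overlap Bin1 on the other strand. CaMKII averaged 414 ± 58.0 CPM in NUAK548 and 376 ± 6.79 CPM in NUAK550, against 251 ± 29.3 CPM in lacZ. The troponin C gene TpnC73F, the calcium sensor of the thin filament, averaged 4477 ± 643 CPM in NUAK548 and 4999 ± 158 CPM in NUAK550, against 2789.6 ± 149 CPM in lacZ (log2 fold change 0.75, SE 0.12, adjusted p = 0.00687). Its relative TpnC41C was called in NUAK550 alone (2.01, SE 0.51, adjusted p = 0.0363) at levels near 1 CPM, of 1.45 ± 0.250 CPM in NUAK548 and 2.25 ± 1.13 CPM in NUAK550, against 0.545 ± 0.222 CPM in lacZ.

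The remaining calls were few. SPARC, in the list of calcium-binding proteins of the endoplasmic reticulum but known as a secreted protein of the basement membrane, was higher for the mean (log2 fold change 0.79, adjusted p = 0.0323). Hemocytes, which also make SPARC, had 3 of 5 listed markers higher for the mean, and the markers summed to 668 to 1176 CPM in NUAK548 muscle and 651 to 1446 CPM in NUAK550 muscle, against 498 to 718 CPM in lacZ muscle. The part of hemocytes in the SPARC value was not tested. Among 4 mitochondrial calcium genes, porin, the channel of the outer mitochondrial membrane, was lower in NUAK548 (-1.07, SE 0.25, adjusted p = 0.0437), and none was called for the mean.

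Several of these calls were lost in fits that left out a muscle library. Such fits changed the calls over all genes too. In NUAK548 muscle 5.56% of genes were called with all libraries, against 2.47% without lacZ library 1 and 1.73% without lacZ library 2. For the mean of the genotypes, stj, homer, Plc21C and TpnC73F were called with each library left out. CaMKII was lost without lacZ library 1 or 2 (adjusted p up to 0.0640). CanB2 was lost without any 1 lacZ library or NUAK550 library 3 (up to 0.0974), Ca-beta without any 1 lacZ library or NUAK550 library 1 or 3 (up to 0.102), and Calx without any 1 lacZ library, NUAK548 library 3 or NUAK550 library 3 (up to 0.0962). SPARC was lost without any 1 lacZ library, NUAK548 library 2 or 3, or NUAK550 library 3 (up to 0.131), and sra without any 1 lacZ library, NUAK548 library 3, or NUAK550 library 1 or 2 (up to 0.129). For SPoCk, NUAK548 library 2 was the one library that could be left out with the call kept (up to 0.155). The NUAK548 call of porin and the NUAK550 call of TpnC41C were each lost in 7 of 9 such fits (kept without lacZ library 3 or NUAK550 library 2 for porin, and without NUAK548 library 2 or NUAK550 library 1 for TpnC41C).

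**Figure D4:**
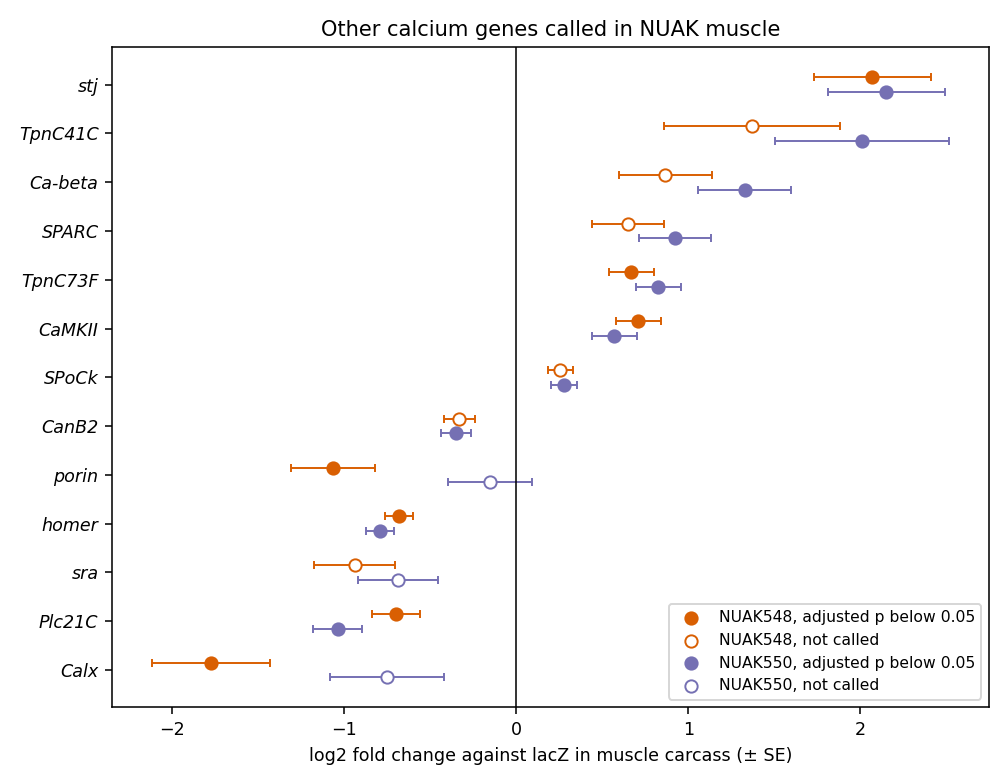
Log2 fold change against lacZ in muscle carcass (horizontal axis, ± SE) of the 13 further calcium genes called in at least 1 comparison with lacZ, NUAK548 in orange and NUAK550 in violet, filled where the adjusted p was below 0.05. The channel subunit gene stj lies at 2.07 and 2.15, and homer at -0.68 and -0.79.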

How the data were processed

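The authors deposited raw counts per gene and library, with exon coordinates. Per the submitters' processing notes, the tools were Trimmomatic 0.36, STAR 2.5.2b, featureCounts of Subread 1.5.2 and DESeq2, on the BDGP6 build, and neither strand setting nor annotation release is given. A table of normalized signal for each preparation was deposited too. Its values equalled the counts over a single factor for each library (relative spread at most 9.87e-10) for 9402 genes in muscle and 11765 in whole larvae, and it served for 1 alternative.

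Of 17411 identifiers, 17137 were named by identifier and 223 by exon position (Jaccard index of at least 0.5). All 47 calcium symbols matched. One other gene of calcium handling is not reported here. Gene coordinates are those of BDGP6.

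Counts were tested with edgeR 4.0.16 in R 4.3.3 (filterByExpr, TMM, quasi-likelihood F test, two-sided, Benjamini-Hochberg), called at adjusted p below 0.05. Each preparation was modelled by itself, with 9 libraries in 3 groups (9821 genes in muscle, 12255 in whole larvae), and a joint model of 18 libraries took 12429 genes. An SE is the size of the log2 fold change over the square root of F. Named are the 9 members, other listed calcium genes called in a NUAK comparison with lacZ, the 5 genes most correlated with RyR in muscle (log2 CPM, prior count 2), and lncRNA:roX1, lncRNA:roX2 and Nuak as checks. Members and lists were chosen with earlier results of these data known, so no pattern here is independent support for those results.

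The labels do not say that equal replicate numbers mark a shared batch, so the main fits had no replicate block. In muscle, deviations of libraries correlated above 0.1 in 1 of 9 same-numbered pairs and 7 of 18 others. In whole larvae they did so in 4 of 9 same-numbered pairs and 2 of 18 others, the higher share with equal numbers. Whether equal numbers pair libraries was not tested further. Headers of whole NUAK550 carry other numbers than the labels, which were followed. Correlations within groups were 0.958 to 0.979 in muscle and 0.857 to 0.986 in whole larvae. No library was a copy of another of its group (lowest chi-square per degree of freedom 37.8), and pairs across groups were not compared in this way. On simulated counts of the mean comparison, the test recovered 98% of genes changed by log2 3 and 56% of those changed by log2 1 in muscle, and 80% and 27% in whole larvae.

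Alternatives were RLE size factors, DESeq2 1.42.0, no filter or a stricter one (CPM of at least 1 in 3 libraries), the replicate number as a block, limma 3.58.1 on log2 of the authors' normalized values plus 1, only the 2 groups compared, lncRNA:roX1 as a covariate, and each library left out.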

Additional observations from a re-analysis of the deposited data

Results flagged for a closer look

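The difference of RyR between NUAK and lacZ was not the same in muscle carcass and whole larvae, by edgeR's test in the joint model of 18 libraries. The log2 fold change in muscle minus that in whole larvae was -3.61 for NUAK548 (adjusted p = 0.0292), -3.45 for NUAK550 (adjusted p = 0.0313) and -3.53 for the mean of both (adjusted p = 0.0106). With a replicate block the adjusted p was 0.104, 0.0787 and 0.0481. Both single-genotype calls were also lost in several fits that left out a library, while that of the mean held. The lncRNA:roX1 covariate was not fitted in the joint model, and genetic background had no control. In muscle all 6 NUAK libraries were below all 3 lacZ libraries. In whole larvae the 3 NUAK550 libraries were above the 3 lacZ libraries and NUAK548 overlapped them.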

How the results depend on the processing

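Of the 108 member values, 104 kept direction and call under RLE size factors, 88 under DESeq2, all 108 without the filter or with the stricter one, and 100 of 108 with a replicate block. On the authors' normalized values with limma 67 of 72 did so, with the lncRNA:roX1 covariate 58 of 72, and with only the 2 groups compared 49 of 54. The members called are counted as follows, the main value first. NUAK548 muscle had 3, beside 5.56% of all genes, 0 with the lncRNA:roX1 covariate and 1 to 3 with a library left out. The share of all genes called moved between settings too. In NUAK548 muscle DESeq2 called 4 members, beside 11.5% of all genes, and the replicate block 2, beside 2.26%. NUAK550 muscle had 2, 1 with the replicate block, 0 with the covariate and 1 to 2 with a library left out. Their mean had 3, 0 with the covariate and 1 to 4 with a library left out. NUAK550 against NUAK548 in muscle had 0, 4 by DESeq2 and 0 to 1 with a library left out. Whole NUAK550 against lacZ had 0, 3 by DESeq2, by limma and with the 2 groups only, and 0 to 3 with a library left out. The whole-larva mean had 0, and 1 by DESeq2. Whole NUAK550 against NUAK548 had 0, 2 by DESeq2, 1 with the 2 groups only and 0 to 1 with a library left out. The differences between preparations had 1 each. For NUAK548 DESeq2 called 2, the replicate block 0, and fits without a library 0 to 2. For NUAK550 RLE and DESeq2 called 2, the replicate block 0, and fits without a library 0 to 2. For the mean DESeq2 called 3 and fits without a library 1 to 3. With the replicate block the adjusted p of RyR was 0.0880 in NUAK550 muscle and 0.104 and 0.0787 for the single-genotype differences between preparations. The replicate block also ended the calls of jp in NUAK548 (0.0688), of Ca-alpha1D for the mean (0.0542) and of olf186-F between the lacZ preparations (0.0914). The covariate left 2, 0 and 0 of all genes called in the muscle comparisons. Beyond the covariate's construction, the cause was not tested for any of these. Signs changed only in values that had not been called. With the covariate these were SERCA (-0.245) and Ca-alpha1D (0.0138) in NUAK550 muscle, Itpr (0.0596), cac (0.354) and jp (-0.0788) in NUAK550 against NUAK548 muscle, and Stim (-0.131) in whole NUAK548. Under RLE they were Itpr in NUAK550 muscle (-0.00123), Stim in whole NUAK548 (-0.00263) and the mean difference of cac between preparations (-0.0103), and by DESeq2 the same 3 (-0.00176, -0.00302, -0.0111). By limma they were Itpr in NUAK550 muscle (-0.0274) and olf186-F in whole NUAK550 against NUAK548 (-0.0240), and with the block the difference of cac between preparations in NUAK548 (-0.00644) and the mean (-0.0835). With a library left out the following spanned 0. Itpr ran from -0.158 to 0.184 in NUAK550 muscle, -0.0364 to 0.155 in the muscle mean, -0.243 to 0.1001 in NUAK550 against NUAK548 muscle and -0.452 to 0.126 in lacZ muscle against whole. SERCA ran from -0.275 to 0.210 in the muscle mean and -0.114 to 0.239 in whole NUAK548. In whole NUAK548, RyR ran from -0.0309 to 0.908, Stim from -0.0727 to 0.0563 and jp from -0.310 to 0.0183. For olf186-F the range was -0.212 to 0.0497 in whole NUAK550 and -0.250 to 0.0116 in the whole mean. For cac it was -0.122 to 0.451 in NUAK550 muscle, -0.494 to 0.113 in NUAK550 against NUAK548 muscle, -0.00107 to 0.533 in whole NUAK548, -0.0183 to 0.516 in whole NUAK550, -0.00966 to 0.524 in the whole mean and -0.124 to 0.0398 in whole NUAK550 against NUAK548. Differences between preparations spanned 0 for cac (-0.188 to 0.337 in NUAK548, -0.394 to 0.298 in NUAK550, -0.291 to 0.222 in the mean), Stim (-0.173 to 0.00825 in NUAK548) and Ca-alpha1T (-0.0620 to 0.471 in NUAK548). Depth limits cac in muscle, with as few as 43 reads in a library.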
